A study of Mus musculus with 18 samples.

Results

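The subject here is how the high-fat diet (HFD) response of the mouse liver compared with that of epididymal fat, gene by gene. For each gene the difference of the HFD arrays from the normal diet (ND) arrays was taken in liver and in fat, and the 2 differences were set against each other. A gene entered when 1 of its probes was detected in both tissues. Detection in a tissue required all 3 arrays of ND, or all 3 of HFD, to have a detection p below 0.05. This left 8212 of the 14422 genes with a named probe on the array, where 8766 were detected in liver and 10089 in fat. The entry rule used no difference between diets, but 494 of the 8212 genes passed in liver only through the HFD arrays and 69 only through the ND arrays. In fat these numbers were 109 and 87, and 7505 genes were detected on all 12 arrays.

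The mice were male C57BL/6J (written C56BL/6J in the strain field), 4 weeks old on arrival, and were kept on a semi-purified AIN-76 diet for 1 week before the study diets. They then received ND (10 mice) or HFD with 20% fat and 1% cholesterol (13 mice) for 16 weeks, and the labels name no genetic change or drug for these groups. Each of the 4 groups used here (ND liver, HFD liver, ND fat, HFD fat) has 3 arrays, so 12 of the study's 18 arrays were used, and the 6 arrays of mice given luteolin with HFD served only in an alternative fit. The labels do not say whether each array holds the RNA of 1 mouse or whether equal numbers in liver and fat mark the same mouse, so p-values measure the spread between these samples. The fat and cholesterol of the diet were changed together and their parts cannot be told apart. In whole tissue, a change in the number of cells of a type and a change of RNA per cell also cannot be told apart.

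Liver and fat handle the same dietary lipid in different ways. The liver takes up fatty acids and cholesterol, stores little triglyceride in health, and lowers its own sterol synthesis when cholesterol comes with the food, through retention of the SREBP transcription factors in the endoplasmic reticulum. Fat cells hold triglyceride in 1 large droplet. In long-lasting obesity macrophages gather around dying fat cells and take up lipid in lysosomes, and lipid-laden macrophages also gather in a fatty liver.

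Between 15464 and 16848 probes were detected on the liver arrays and between 19113 and 19852 on the fat arrays, of 45281 on the array, and arrays of 1 group correlated at 0.992 or more. Most defining genes of each tissue were detected in it. The adipocyte genes Adipoq, Plin1, Lep, Fabp4 and Retn were detected on all 6 fat arrays and on none of the 6 liver arrays. The hepatocyte gene Alb was detected on all 6 liver arrays and on no fat array. Of 22 hepatocyte markers, 20 were detected on all 3 arrays of each liver group, while Tat and Fgb were detected on no liver array. On all 3 arrays of ND fat 6 of the 22 were detected, and on all 3 of HFD fat 8. The HFD fat array of replicate 1 stood apart in 2 genes of the epididymis and testis list, and it read lowest of the HFD fat arrays in the red cell genes given below. Prm1, a sperm chromatin protein, read 9.87 there against 7.94 and 7.91 on the other HFD fat arrays, and Adam7, an epididymal protein of the ADAM family, read 8.47 against 5.42 and 5.77. Without that array 134 genes were higher in liver and lower in fat and 79 the reverse, against 187 and 105 with it. This loss was not particular to that array. The counts were 126 and 73 without HFD fat replicate 2, and 153 and 87 without HFD fat replicate 3. Alas2, the haem enzyme of red cell precursors, was lower in HFD fat by 1.74 ± 0.31 on the log2 scale (adjusted p = 9.2e-04), and the part of blood in the fat samples was not tested.

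The diet changed many genes in both tissues, and a gene that changed in both more often moved in the same direction than in opposite directions. In liver 1438 genes (17.5% of 8212) were higher on HFD and 894 (10.9%) lower at an adjusted p under 0.05. In fat 1569 (19.1%) were higher and 1887 (23.0%) lower. The counts of the gene lists below are to be read against these shares. Both tests were passed by 1160 genes. Of these, 868 (74.8%) had the same direction, 608 higher in both tissues (7.40% of all genes tested) and 260 lower in both (3.17%). The other 292 (25.2%) went opposite ways, 187 higher in liver and lower in fat (2.28%) and 105 lower in liver and higher in fat (1.28%). In liver 202 genes were over 2-fold higher and 33 over 2-fold lower, and in fat 277 and 84. Of these, 67 genes were over 2-fold higher in both tissues, 4 over 2-fold lower in both, 3 over 2-fold higher in liver and lower in fat, and 3 the reverse. Of the 608 genes higher in both, 119 had passed the detection rule in liver only through the HFD arrays, so their rise there was partly built into their entry. The same holds for 25 of the 187 genes higher in liver and lower in fat, and 5 of the 187 had entered in fat only through the ND arrays. Of the 105 genes of the reverse pattern, 8 had entered in fat only through the HFD arrays and 2 in liver only through the ND arrays, and the 105 genes were 69 without HFD liver replicate 1.

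The difference between the 2 diet effects (liver minus fat) was tested for every gene in 1 fit, with an adjusted p under 0.05. It was above 0 for 1426 genes (17.4%) and below 0 for 990 (12.1%). This includes all 292 genes with opposite changes. A further 59 genes changed the same way but by more in liver, and 153 the same way but by more in fat. Another 592 had changed in liver alone by its own test and 1204 in fat alone, and 116 had passed in neither. For 656 of the 868 genes with a shared direction no difference between tissues was called, which does not show that the effects were equal. Across genes, which are not independent, the 2 diet differences had a Pearson correlation of 0.331 and a Spearman correlation of 0.260. When arrays were scaled by their medians instead, 49.3% of the liver calls were rises in place of 61.7%, and 48.4% of the called differences between tissues were above 0 in place of 59.0%. With cyclic loess 70.8% of the liver calls were rises. In fat 45.4% of calls were rises, and 54.0% with cyclic loess. The median gene differed by 0.0043 in liver and by -0.038 in fat (log2).

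**Figure D1:**
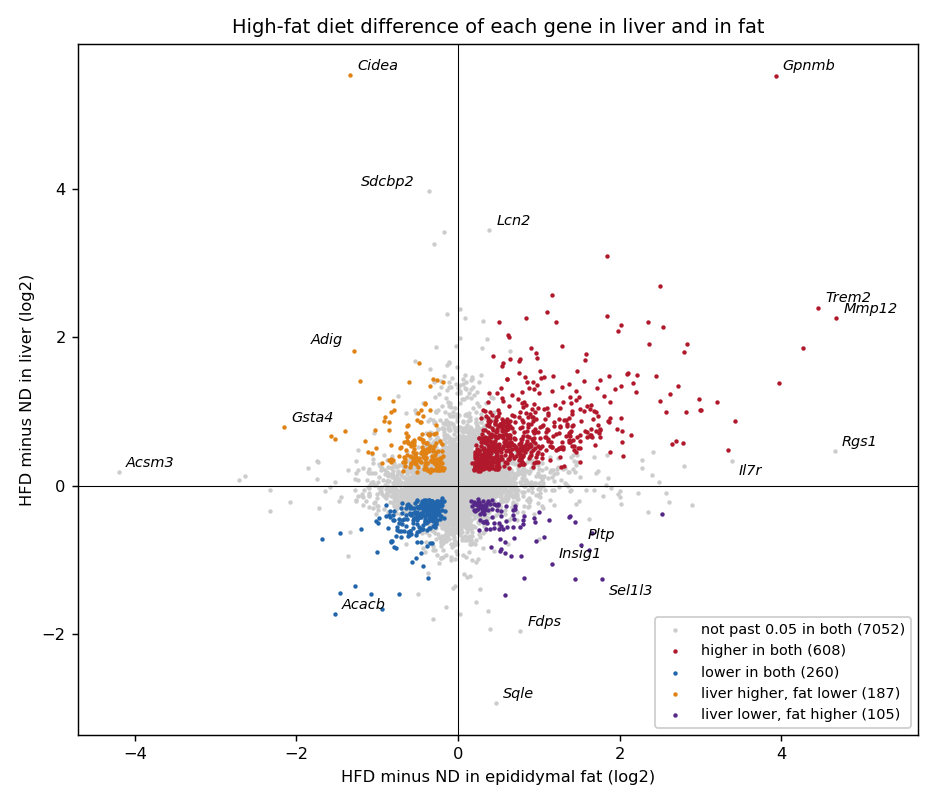
Each point is 1 of 8212 genes, with the HFD minus ND difference in epididymal fat on the horizontal axis and in liver on the vertical axis, both log2. Coloured points passed an adjusted p of 0.05 in both tissues: 608 higher in both, 260 lower in both, 187 higher in liver and lower in fat, 105 the reverse. Cidea lies alone at the upper left, and Gpnmb, Trem2 and Mmp12 at the upper right.

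The genes with the clearest rise in liver and decrease in fat were led by 2 genes of fat cells. Cidea encodes a protein that enlarges lipid droplets by moving lipid between them. Its normalized log2 signal was 6.21, 5.40 and 6.36 on the ND liver arrays, 11.52, 11.86 and 11.18 on the HFD liver arrays, 7.97, 8.54 and 8.23 on the ND fat arrays and 6.94, 6.58 and 7.19 on the HFD fat arrays. It was not detected on any ND liver array and was detected on all HFD liver arrays, and no array of one diet overlapped the other in either tissue. The fitted liver difference, which takes the background values on ND, was 5.53 ± 0.26 (SE, adjusted p = 1.9e-07). Counted from the detection floor, liver Cidea was at least 32.4-fold higher on HFD, a bound that was not tested. Fat Cidea fell 2.53-fold (difference -1.34 ± 0.26, adjusted p = 0.0015). In the HFD groups the order of the tissues was turned, with more Cidea signal in liver than in fat.

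Adig, a small membrane protein of differentiating fat cells, was 5.04, 4.99 and 4.92 on the ND liver arrays, 6.31, 6.98 and 7.11 on the HFD liver arrays, 13.79, 14.11 and 13.73 on the ND fat arrays and 12.37, 12.64 and 12.73 on the HFD fat arrays. Adig was undetected in ND liver and lay far below its fat level in HFD liver. The fitted liver difference, which takes the background values on ND, was 1.82 ± 0.18 (adjusted p = 3.6e-05). Counted from the detection floor, the liver rise was at least 1.23-fold, a bound that was not tested. The decrease in fat was 2.45-fold (-1.29 ± 0.18, adjusted p = 1.8e-04). The tissues differed for both genes, with an adjusted p of 9.1e-07 for Cidea and 1.5e-05 for Adig.

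The other 6 genes of this kind had smaller changes. Where only 1 or 2 of the 3 arrays of a group detected a gene, its level there rests partly on background. Tafa5, a secreted chemokine-like protein, rose at least 1.86-fold in liver and fell by 1.21 in fat, where it was detected on 1 of 3 HFD arrays. Adgrg2, an adhesion G protein-coupled receptor, rose at least 1.60-fold in liver and fell by 0.98 in fat. Pde1a, a calmodulin-dependent cyclic nucleotide phosphodiesterase, was detected on all 12 arrays, rose by 0.93 ± 0.14 in liver and fell by 0.91 ± 0.14 in fat, a near mirror image. Dusp4, a phosphatase of nuclear MAP kinases, rose by 0.99 ± 0.15 and fell by 0.83 ± 0.15. In the authors' deposited log2 values, whose background treatment is not stated in the sources used here, the liver difference of Dusp4 was 0.15 and missed the threshold. Syt12, a synaptotagmin, and Zfp872, a zinc finger protein, were undetected in ND liver and rose at least 1.22-fold and 1.15-fold there. Syt12 missed the threshold in liver in the authors' values (difference 0.26) and without background correction (0.34), and Zfp872 with median scaling (0.52). For Tafa5 and Adgrg2 the liver change is a bound because no ND array there detected them. All genes of this kind named here except Pde1a had entered in liver only through the HFD arrays, so their liver rise was partly built into their entry. In all 8 genes the arrays of the diets did not overlap in either tissue, which was required for naming them. Over all genes, the arrays of the diets did not overlap for 44.6% in liver and 54.5% in fat.

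The reverse pattern, lower in liver and higher in fat, held 3 sterol synthesis genes among its 8 leading genes, described with their pathway later. Sel1l3, a transmembrane protein with Sel1-like repeats, had the largest values. Its signal was 10.27, 10.38 and 10.55 on the ND liver arrays, 9.29, 8.98 and 9.16 on the HFD liver arrays, 6.70, 5.95 and 6.28 on the ND fat arrays and 8.29, 8.05 and 7.92 on the HFD fat arrays. Every HFD array lay below every ND array in liver and above every ND array in fat. It fell by 1.26 ± 0.17 in liver (adjusted p = 2.4e-04) and rose by 1.78 ± 0.17 in fat (adjusted p = 8.4e-06), and the diet effects differed (adjusted p = 9.2e-06).

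Pltp, which transfers phospholipids between lipoproteins, read 9.02, 8.77 and 8.67 on the ND liver arrays, 7.74, 8.19 and 8.15 on the HFD liver arrays, 8.19, 8.14 and 8.20 on the ND fat arrays and 9.69, 9.71 and 9.69 on the HFD fat arrays. The 3 HFD fat arrays lay close together and above all other arrays. Liver Pltp fell 1.73-fold (-0.79 ± 0.11, adjusted p = 4.2e-04) and fat Pltp rose 2.87-fold (1.52 ± 0.11, adjusted p = 1.7e-06). Lamb3, the beta 3 chain of laminin in basement membranes, fell by 1.26 ± 0.21 in liver and rose by 1.44 ± 0.21 in fat. Camk1d, a calmodulin-dependent kinase, fell by 0.74 ± 0.11 and rose by 0.96 ± 0.11, and had entered in fat only through the HFD arrays. Gadd45b, a stress-induced gene, fell by 1.24 ± 0.28 in liver (adjusted p = 0.0064). Its rise in fat of 0.82 ± 0.28 (adjusted p = 0.034) missed the threshold with the replicate number as a fixed block (adjusted p = 0.0501) and with no detection filter (0.0531). It also missed it without any 1 of 4 fat arrays, with differences from 0.63 without ND replicate 3 to 0.79 without ND replicate 2, and at 0.70 and 0.75 without HFD replicates 1 and 2.

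**Figure D2:**
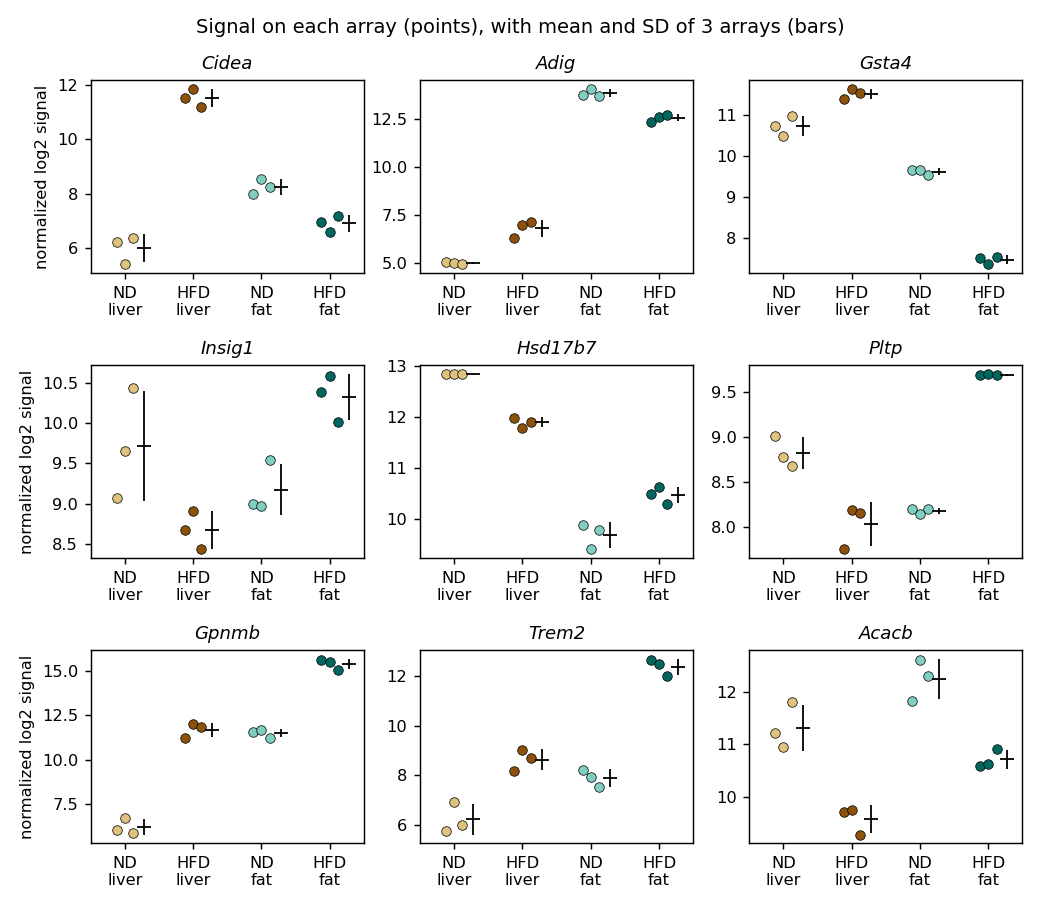
Normalized log2 signal (vertical axis) of 9 genes on each array, with 3 points per group of diet and tissue and a bar for the mean and SD of the 3 arrays. Cidea, Adig and Gsta4 rise in liver and fall in fat, Insig1, Hsd17b7 and Pltp do the reverse, Gpnmb and Trem2 rise in both, and Acacb falls in both.

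Genes of cholesterol synthesis were mostly lower in HFD liver, and some of them were higher in HFD fat. Of 14 tested genes for sterol synthesis and its control, 12 were lower in HFD liver and 0 higher, while in HFD fat 5 were higher, 0 lower and 9 did not pass. The 5 genes higher in fat were all lower in liver. The median difference over the 14 genes was -0.92 in liver and 0.55 in fat, against 0.0043 and -0.038 over all genes tested. The diet effects differed between tissues for 11 of the 14, all with liver below fat.

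Sqle, squalene epoxidase, an oxygen-using step of the pathway, had the largest difference between tissues of the list. It read 8.18, 8.89 and 10.47 on the ND liver arrays, 6.05, 6.58 and 6.12 on the HFD liver arrays, 8.74, 8.40 and 9.15 on the ND fat arrays and 9.24, 9.46 and 8.99 on the HFD fat arrays. Only 1 of the 3 HFD liver arrays detected it, and the ND liver arrays were widely spread. It was lower in HFD liver by 2.93 ± 0.44 (adjusted p = 5.0e-04), while its fat difference of 0.47 ± 0.44 did not pass (adjusted p = 0.42). Fdps, which makes farnesyl diphosphate, fell by 1.96 ± 0.36 in liver, with a fat difference of 0.77 ± 0.36 that did not pass (adjusted p = 0.10). Cyp51, the lanosterol demethylase, fell by 1.69 ± 0.26 in liver.

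Hsd17b7, the 3-ketosteroid reductase of the pathway, read 12.84, 12.85 and 12.84 on the ND liver arrays, 11.99, 11.79 and 11.91 on the HFD liver arrays, 9.87, 9.39 and 9.78 on the ND fat arrays and 10.48, 10.61 and 10.29 on the HFD fat arrays. The groups did not overlap in either tissue. It fell 1.93-fold in liver (-0.95 ± 0.12, adjusted p = 1.7e-04) and rose 1.72-fold in fat (0.78 ± 0.12, adjusted p = 3.1e-04). Insig1, the endoplasmic reticulum protein that holds SREBP back when sterol is plentiful and is itself an SREBP target, read 9.07, 9.65 and 10.43 on the ND liver arrays, 8.68, 8.91 and 8.43 on the HFD liver arrays, 8.998, 8.98 and 9.54 on the ND fat arrays and 10.39, 10.58 and 10.02 on the HFD fat arrays. It fell by 1.05 ± 0.29 in liver (adjusted p = 0.018) and rose by 1.16 ± 0.29 in fat (adjusted p = 0.0072). The ND liver arrays were spread widely, and the liver call was lost without ND liver replicate 3 (-0.69) and without HFD liver replicate 3 (-0.92).

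Msmo1, the C4 methylsterol oxidase, fell by 0.70 ± 0.17 in liver and rose by 0.70 ± 0.17 in fat. Dhcr7, the last enzyme before cholesterol, fell by 0.69 ± 0.23 and rose by 1.07 ± 0.23. Nsdhl, a sterol dehydrogenase, fell by 0.95 ± 0.24 and rose by 0.66 ± 0.24. The liver call of Dhcr7 was kept in 16 of 25 other settings and lost without ND liver replicates 2 or 3, any HFD liver array or ND fat replicate 1. The fat call of Nsdhl was kept in 12 of 25 and lost without any HFD array of either tissue or ND fat replicates 2 or 3. The count of 5 sterol genes lower in liver and higher in fat was 3 without HFD liver replicate 1 or 2 and 2 without HFD liver replicate 3. Srebf2, the transcription factor of the pathway, fell by 0.40 ± 0.11 in liver, with a fat difference of -0.04 (adjusted p = 0.80).

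The promoters of 3 of these genes are shown because the genes went in opposite directions in liver and fat together. They are from RefSeq on GRCm38.p6 and cover 300 bases around the start of the gene, 5′ to 3′ on the strand of the gene, with the letters CCAAT, or ATTGG on the other strand, in capitals. CCAAT is the letter sequence bound by NF-Y, a factor that acts beside SREBP at sterol genes. The Hsd17b7 promoter lies at chr1:169969156-169969455 (minus strand), that of Insig1 at chr5:28071162-28071461 (plus strand) and that of Nsdhl at chrX:72918271-72918570 (plus strand).
Hsd17b7: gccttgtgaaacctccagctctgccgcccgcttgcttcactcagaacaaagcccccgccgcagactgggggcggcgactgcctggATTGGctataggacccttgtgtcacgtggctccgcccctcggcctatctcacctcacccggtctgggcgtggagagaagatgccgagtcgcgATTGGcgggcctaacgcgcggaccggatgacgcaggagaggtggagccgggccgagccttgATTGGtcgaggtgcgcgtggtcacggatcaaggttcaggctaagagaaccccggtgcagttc
Insig1: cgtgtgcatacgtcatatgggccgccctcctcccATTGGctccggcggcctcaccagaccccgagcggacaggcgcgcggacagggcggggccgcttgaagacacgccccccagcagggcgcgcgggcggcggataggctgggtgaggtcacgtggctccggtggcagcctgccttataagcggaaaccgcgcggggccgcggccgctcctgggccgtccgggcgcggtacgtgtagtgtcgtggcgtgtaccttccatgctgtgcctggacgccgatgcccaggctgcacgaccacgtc
Nsdhl: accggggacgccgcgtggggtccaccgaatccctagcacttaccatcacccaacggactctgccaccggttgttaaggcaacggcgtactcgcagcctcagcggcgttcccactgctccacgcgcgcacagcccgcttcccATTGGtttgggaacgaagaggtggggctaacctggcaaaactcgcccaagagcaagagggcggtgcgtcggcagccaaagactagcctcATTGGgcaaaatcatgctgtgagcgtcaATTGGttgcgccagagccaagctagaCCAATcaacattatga
Of the 14 sterol genes, 11 had promoters in the reference table, 14 promoters in all, and each of the 11 genes had at least 1 promoter with CCAAT on either strand. Thus 11 of the 14 promoters (78.6%) held it, against 37.4% of all 32851 promoters of the table and 37.5% of the 8626 promoters of the genes tested here. The sterol element searched as TCACNCCAC on both strands was in 0 of the 14 promoters and in 1.24% of all promoters. With no match of the sterol spelling, no match of 1 motif overlapped the other. A match is a description of letters and not of a bound site, and the absence of 1 spelling says only that these letters are not in the window. Sqle, Fdps and Stard4 are named without a sequence.

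Some clock genes changed in each tissue. The circadian clock is a loop in which BMAL1 (Arntl) and CLOCK drive the Per and Cry repressors, Nr1d1 and output genes such as Dbp. Of 14 tested genes 5 were higher and 4 lower in HFD liver, and 1 was higher and 6 lower in HFD fat, with medians of 0.25 and -0.35. Over all genes tested 17.5% were higher and 10.9% lower in liver, and 19.1% were higher and 23.0% lower in fat. The diet effects differed for 9, with liver above fat for 8 and below fat for Arntl. The labels give a 12-hour light and dark cycle and no time of tissue collection, so a shift in time and a change of level cannot be told apart.

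Per2, a repressor of the loop, read 10.13, 10.74 and 10.09 on the ND liver arrays, 11.43, 11.21 and 11.74 on the HFD liver arrays, 11.03, 11.34 and 11.05 on the ND fat arrays and 10.17, 10.23 and 10.62 on the HFD fat arrays. HFD arrays lay above all ND arrays in liver and below all ND arrays in fat. Per2 rose 2.20-fold in liver (1.14 ± 0.19, adjusted p = 9.8e-04) and fell 1.74-fold in fat (-0.80 ± 0.19, adjusted p = 0.0054). It was the 1 clock gene with opposite calls. Ciart, a repressor of the clock, rose by 2.38 ± 0.37 in liver, where 1 of 3 ND arrays detected it, with a fat difference of 0.02 ± 0.37 that did not pass. Usp2, a clock-driven deubiquitinase, rose by 1.69 ± 0.26 in liver and differed by -0.53 in fat without passing (adjusted p = 0.12). Dbp rose by 1.36 ± 0.23 in liver and Arntl fell by 1.18 ± 0.20 there, while their fat differences of 0.02 and 0.07 did not pass. Nr1d1 fell by 0.82 ± 0.12 in fat and differed by -0.02 in liver without passing.

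The Ciart promoter is shown because it held the largest number of E-boxes (CACGTG, the letters bound by the CLOCK and BMAL1 pair, in capitals) in the list. It lies at chr3:95882179-95882478 (minus strand) on GRCm38.p6 in RefSeq and covers the same window.
Ciart: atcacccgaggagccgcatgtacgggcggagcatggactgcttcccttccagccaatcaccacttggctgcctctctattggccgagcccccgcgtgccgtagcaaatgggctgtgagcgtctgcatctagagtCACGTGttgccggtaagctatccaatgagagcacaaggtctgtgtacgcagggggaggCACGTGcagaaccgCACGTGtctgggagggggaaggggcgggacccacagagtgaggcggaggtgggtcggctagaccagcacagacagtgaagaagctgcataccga
It holds CACGTG 3 times. CACGTG was found in 4 of the 17 promoters (23.5%) of the 12 clock genes with an entry, those of Ciart, Per1 and Tef, against 7.15% of all promoters and 10.4% of those of the genes tested here. CACGTG reads the same on both strands. The D-box TTATGTAA, searched on both strands, was in 1 of the 17 promoters (5.88%), that of Per3, against 0.938% of all. The 2 spellings cannot overlap on either strand. Per2 and Bhlhe40 are named without a sequence.

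**Figure D3:**
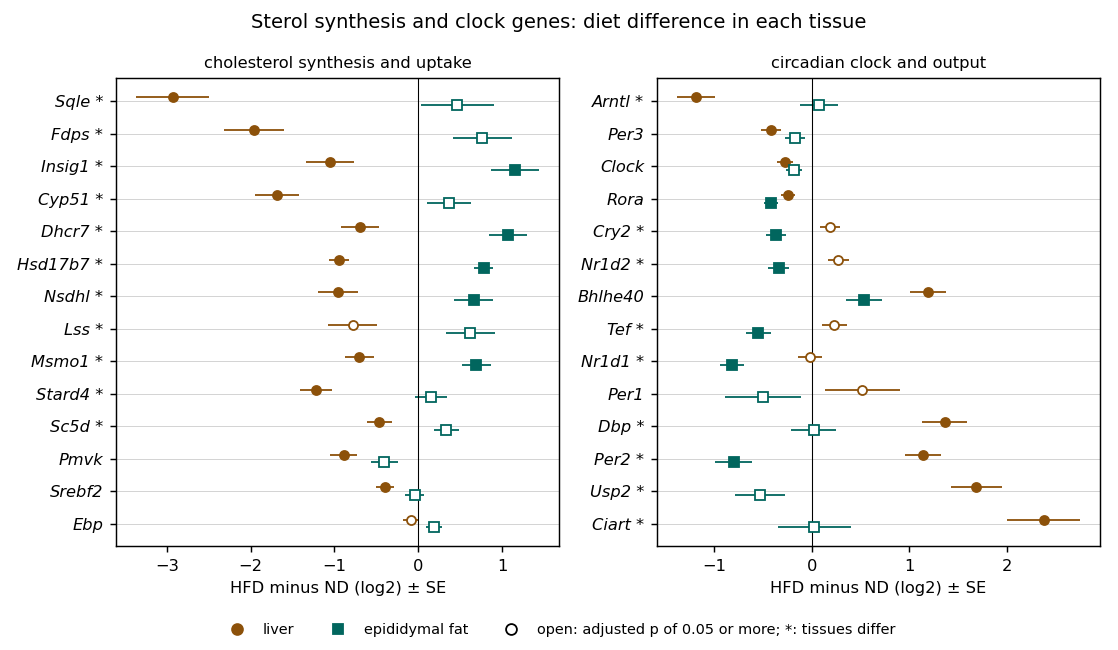
HFD minus ND difference (log2, horizontal axis, bars show SE) of each tested sterol and clock gene, circles for liver and squares for fat, open where the adjusted p was 0.05 or more, with a star where the diet effects differed between tissues. In the sterol list 12 liver points are filled on the left and 5 fat points on the right. In the clock list Per2, Dbp, Usp2 and Ciart have liver points far to the right.

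Several of the leading shared rises were genes of macrophages. All leading genes of this class had entered in liver only through the HFD arrays, and H2-M2 also in fat. Their rise there was thus partly built into their entry. Gpnmb, a membrane glycoprotein of lipid-laden macrophages, was 6.03, 6.66 and 5.83 on the ND liver arrays, 11.24, 12.002 and 11.84 on the HFD liver arrays, 11.58, 11.67 and 11.23 on the ND fat arrays and 15.66, 15.52 and 15.10 on the HFD fat arrays. HFD arrays were far above ND arrays in both tissues. It rose by 5.52 ± 0.24 in liver, where 1 of 3 ND arrays detected it (adjusted p = 1.7e-07), and 15.3-fold in fat (3.93 ± 0.24, adjusted p = 3.5e-07). The liver rise was the larger by these values (adjusted p of the difference 0.0052), though the difference missed the threshold in the authors' values and without background correction. In HFD fat Gpnmb lay near the brightest genes, such as Lep with a mean of 16.02, and a limit on its fat rise from the top of the scale was not tested.

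Trem2, the lipid-sensing receptor of these macrophages, was 5.77, 6.93 and 6.000 on the ND liver arrays, 8.17, 9.02 and 8.71 on the HFD liver arrays, 8.23, 7.95 and 7.53 on the ND fat arrays and 12.62, 12.47 and 12.01 on the HFD fat arrays. The diets did not overlap in either tissue. It rose by 2.398 ± 0.30 in liver, where 1 of 3 ND arrays detected it, and 22.0-fold in fat (4.46 ± 0.30), a larger rise in fat (adjusted p of the difference 0.0044). Mmp12, macrophage elastase, rose at least 1.89-fold in liver, where no ND array detected it, and 25.7-fold in fat, so the sizes of its 2 rises cannot be ordered. H2-M2, a non-classical class I molecule, was undetected on ND in both tissues and was at least 3.94-fold higher in HFD liver and at least 5.11-fold higher in HFD fat.

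The other 4 leading shared rises had no called difference between tissues. Timp1, an inhibitor of matrix proteases, rose at least 2.34-fold in liver and 5.80-fold in fat. S100a8, a calcium-binding protein of neutrophils and monocytes, rose at least 2.42-fold and 4.04-fold. Fam83f rose at least 2.41-fold and 5.11-fold. Prc1, which bundles microtubules in dividing cells, rose by 2.09 ± 0.19 in liver, where 1 of 3 ND arrays detected it, and by 1.99 ± 0.19 in fat.

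Of 18 tested macrophage markers 15 rose in liver and 17 in fat, 14 of them in both, and none was lower in either tissue. The fat effect was above the liver effect for 11 and below it for 1, Lyz1, a near copy of Lyz2 whose signals the probes may share, with medians of 0.58 in liver and 1.34 in fat. Adgre1, the F4/80 antigen, rose by 0.45 ± 0.09 in liver and 1.88 ± 0.09 in fat. Other Adgre1 probes differed by 0.90 and 0.81 in liver and by 1.98 and 2.35 in fat. Ctss, a cathepsin of antigen-presenting cells, rose by 2.396 ± 0.17 in fat, with a liver difference of 0.14 that did not pass. The linear signal summed over 23 macrophage markers went from 25710 to 28050 in ND liver to 41300 to 47700 in HFD liver, and from 88030 to 101500 in ND fat to 168300 to 185600 in HFD fat. The marker sums of the resident liver macrophages, the Kupffer cells, overlapped between the diets in liver (35900 to 39020 on ND, 37160 to 40110 on HFD). In fat these sums overlapped too (17360 to 19670 on ND, 16560 to 18100 on HFD). Of 9 Kupffer markers tested, 2 were higher and 2 lower in liver. In fat 2 were higher and 3 lower, and 2 were lower in both tissues. Vsig4, a complement receptor, rose by 1.47 ± 0.14 in fat with a liver difference of 0.32 that did not pass.

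Among 15 markers of lipid-associated macrophages 9 rose and 2 fell in liver, 12 rose in fat and 7 rose in both. Of these 7, 3 had entered in liver only through the HFD arrays, so their rise there was partly built into their entry. With detection at a p under 0.01 required on all 12 arrays, 4 in place of 7 rose in both. The fat effect was above the liver effect for 8, such as Lipa, lysosomal acid lipase, which rose by 1.90 ± 0.10 in fat and differed by -0.03 in liver without passing. Ctsl, a lysosomal protease, fell by 0.43 ± 0.12 in liver and rose by 1.37 ± 0.12 in fat. The liver call of Ctsl was lost without ND liver replicate 2. The liver effect was above for 3, Gpnmb, Anxa2 and Lgals1, and Anxa2, a membrane-binding annexin, rose by 2.23 ± 0.19 in liver with a fat difference of 0.31 that did not pass (adjusted p = 0.20).

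Most lysosomal genes rose in fat. Of 27 tested, 10 rose and 3 fell in liver, 21 rose and 0 fell in fat, and the fat effect was above the liver effect for 16 and below it for 0. Their medians were 0.11 in liver and 0.64 in fat. Ctsa, a protective carboxypeptidase, fell by 0.48 ± 0.14 in liver and rose by 1.44 ± 0.14 in fat. Other Ctsa probes differed by less, by -0.30 and -0.17 in liver and by 0.90 and 0.69 in fat. Gusb, beta-glucuronidase, rose by 1.44 ± 0.09 in fat with a liver difference of 0.18 that did not pass, and Lgmn, an asparagine endopeptidase, rose by 0.67 in liver and 1.64 in fat. The list shares 5 tested genes with the macrophage lists, whose summed signals rose beside it, and the part of macrophages in its change was not tested. The ND liver arrays 1 and 3 and HFD liver array 1 each decide the liver call of Ctsa, which missed the threshold without any of them.

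Class II antigen presentation genes rose in both tissues. Of 12 tested genes 11 rose in liver, 12 in fat and 11 in both, with medians of 0.78 and 0.63. H2-Aa, a class II alpha chain, rose by 1.08 ± 0.09 in liver and 0.63 ± 0.09 in fat, and Cd74, the invariant chain, by 0.85 and 0.62. Ifi30, a lysosomal thiol reductase, rose by 0.65 ± 0.14 in liver and by 1.76 ± 0.14 in fat, a called difference. The macrophage markers above rose in the same samples, and their part was not tested.

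Of 18 tested cytokines, chemokines and their receptors 15 rose and 1 fell in liver, 12 rose and 2 fell in fat, and 12 rose in both. Of these 12, 3 had entered in liver only through the HFD arrays, and under the stricter detection rule 5 in place of 12 rose in both. Cxcl9, an interferon-induced chemokine for T cells, was the exception with opposite calls. It was 9.83, 10.35 and 10.30 on the ND liver arrays, 11.03, 10.99 and 10.69 on the HFD liver arrays, 11.98, 11.92 and 11.64 on the ND fat arrays and 10.93, 11.10 and 10.96 on the HFD fat arrays. All HFD arrays were above the ND arrays in liver and below them in fat. It rose by 0.75 ± 0.14 in liver (adjusted p = 0.0025) and fell by 0.85 ± 0.14 in fat (adjusted p = 6.3e-04). Cxcl1, a neutrophil chemokine, rose by 2.35 ± 0.19 in liver and 1.10 ± 0.19 in fat. Il1rn, the interleukin 1 receptor antagonist, rose by 1.13 ± 0.18 in liver and at least 7.84-fold in fat, where it was undetected on ND. Interferon-stimulated genes were mixed, with 5 of 22 higher and 7 lower in liver and 4 higher and 1 lower in fat, and Irf9 and Psmb8 had opposite calls, lower in liver and higher in fat. The fat call of Irf9 was lost without ND fat replicate 3 or HFD fat replicate 1, and the liver call of Psmb8 without HFD liver replicate 2.

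Many matrix genes rose in both tissues. Of 26 tested, 20 rose and 1 fell in liver, 17 rose and 2 fell in fat, and 14 rose in both. Of these 14, 5 had entered in liver only through the HFD arrays, and under the stricter detection rule 9 in place of 14 rose in both. The liver effect was above the fat effect for 9 and below it for 2, Mmp14 and Mmp12, whose liver level on ND rests on background. Col1a1, the main fibrillar collagen, read 6.72, 6.29 and 6.71 on the ND liver arrays, 8.78, 9.82 and 8.84 on the HFD liver arrays, 10.50, 10.32 and 10.05 on the ND fat arrays and 11.66, 11.42 and 11.28 on the HFD fat arrays. It rose by 2.57 ± 0.24 in liver, where 2 of 3 ND arrays detected it, and by 1.16 ± 0.24 in fat, with an adjusted p of 0.0096 for the difference, which was lost without background correction and in the authors' values. Without HFD fat replicate 2 the number of matrix genes with liver above fat was 4 in place of 9. Mmp13, an interstitial collagenase, rose by 3.10 ± 0.30 in liver and 1.85 ± 0.30 in fat. Of 11 tested fibroblast and stellate cell markers 5 rose in liver and 2 in fat. The sum over 20 of these markers was 21310 to 21980 in ND liver and 24070 to 27260 in HFD liver, and overlapped between diets in fat. Whether more cells of this kind took part was not tested.

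Of 21 cell cycle genes 10 rose and 2 fell in liver, 14 rose and 1 fell in fat, and 9 rose in both. Of these 9, 6 had entered in liver only through the HFD arrays, so their rise there was partly built into their entry. Cdc20, an activator of the anaphase complex, rose at least 2.65-fold in liver and by 1.21 ± 0.12 in fat. Another Cdc20 probe differed by 1.14 in liver, below that bound, and by 0.80 in fat. Mcm5, a subunit of the replicative helicase, rose by 1.15 ± 0.13 and 1.47 ± 0.13. Tk1, thymidine kinase, rose at least 4.82-fold in fat, while its liver difference of -0.35 ± 0.19 did not pass (adjusted p = 0.20). Another Tk1 probe differed by 0.53 in fat. With a detection p under 0.01 required on all 12 arrays, 2 genes of the list in place of 9 rose in both.

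**Figure D4:**
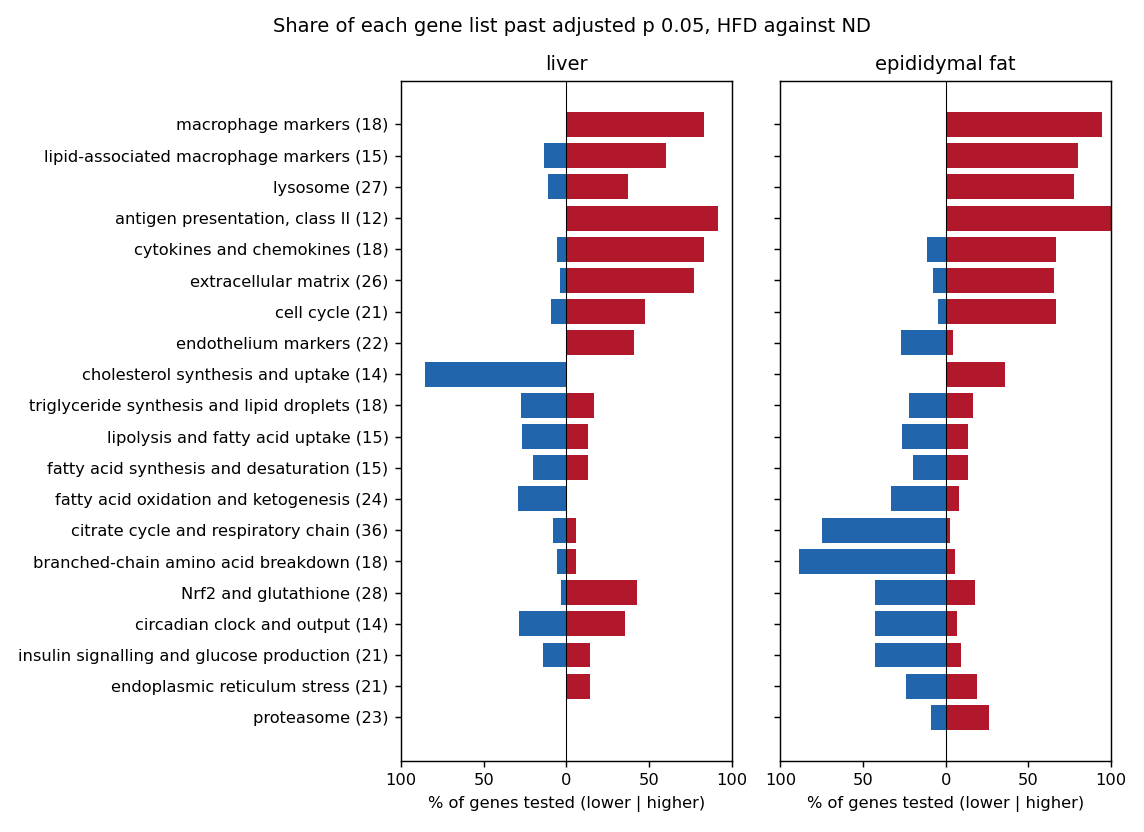
For each of 20 gene lists (number of genes tested in brackets), the percent of genes lower on HFD (blue, to the left) and higher on HFD (red, to the right) at an adjusted p under 0.05, liver in the left panel and epididymal fat in the right. Macrophage, class II, cytokine and matrix genes point right in both panels, sterol genes point left in liver and right in fat, and citrate cycle and branched-chain amino acid genes have long bars to the left in fat and short bars in liver.

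Fewer genes fell far in both tissues. Acacb, the acetyl-CoA carboxylase whose malonyl-CoA holds back fatty acid entry into mitochondria, led them and read 11.21, 10.94 and 11.80 on the ND liver arrays, 9.72, 9.76 and 9.29 on the HFD liver arrays, 11.83, 12.60 and 12.29 on the ND fat arrays and 10.60, 10.63 and 10.92 on the HFD fat arrays. HFD arrays were below all ND arrays in both tissues. It fell 3.32-fold in liver (-1.73 ± 0.23, adjusted p = 2.4e-04) and 2.88-fold in fat (-1.53 ± 0.23, adjusted p = 2.9e-04), with no called difference (adjusted p = 0.68). Ppargc1a, a coactivator of mitochondrial and gluconeogenic genes, read 10.38, 10.75 and 9.97 on the ND liver arrays, 9.71, 9.48 and 9.63 on the HFD liver arrays, 7.84, 7.999 and 7.61 on the ND fat arrays and 7.18, 6.85 and 6.92 on the HFD fat arrays. It fell by 0.76 ± 0.17 in liver and 0.84 ± 0.17 in fat without overlap between diets.

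Acot3, a peroxisomal acyl-CoA thioesterase, fell by 1.46 ± 0.16 in liver and at least 1.48-fold in fat. Eif4ebp3, a repressor of cap-dependent translation, fell by 1.34 ± 0.27 in liver and at least 1.46-fold in fat, where neither it nor Acot3 was detected on HFD. Rsph9, a cilium protein, fell by 0.89 and 1.01. Dapk1, a death-associated kinase, fell by 0.83 and 0.79, and Lgals4, a galectin, by 0.84 and 0.77. Rgs3, which shortens G protein signals, fell by 1.45 and 1.46 on its brightest probe. Its other probes gave 0.16 and -0.22 in liver and -0.15 and -0.09 in fat, so its decrease rests on 1 probe.

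The largest differences between tissues belonged mostly to genes that changed in 1 tissue. Acsm3, a mitochondrial medium-chain acyl-CoA synthetase, was 12.67, 12.75 and 12.36 on the ND liver arrays, 12.75, 12.79 and 12.79 on the HFD liver arrays, 10.82, 12.27 and 10.64 on the ND fat arrays and 6.90, 6.93 and 7.30 on the HFD fat arrays. It fell 18.4-fold in fat (-4.20 ± 0.32, adjusted p = 1.9e-06), while the liver arrays of the diets overlapped (0.18 ± 0.32, adjusted p = 0.71). The other 2 Acsm3 probes differed by -3.84 and -1.38 in fat. Sdcbp2, a syntenin adaptor, and Tmem45b, a transmembrane protein, were undetected in ND liver and rose at least 7.62-fold and at least 3.95-fold there, while their fat differences of -0.35 and -0.18 did not pass. Another Sdcbp2 probe differed by 2.02 in liver, below that bound, and by -0.38 in fat, so the bound holds for 1 probe. Ntrk2, the receptor of brain-derived neurotrophic factor, rose by 3.26 ± 0.33 in liver, where 1 of 3 ND arrays detected it. These 3 genes were brighter in fat than in liver on ND.

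Rgs1, a brake on G protein signals in lymphocytes and macrophages, was 8.47, 9.08 and 8.36 on the ND liver arrays, 9.05, 8.81 and 9.45 on the HFD liver arrays, 6.70, 7.12 and 6.85 on the ND fat arrays and 11.77, 11.66 and 11.24 on the HFD fat arrays. It rose 25.4-fold in fat (adjusted p = 9.0e-08), while the liver arrays of the diets overlapped (difference 0.47 ± 0.21, adjusted p = 0.13). Il7r, a receptor chain of T cells, rose 10.5-fold in fat (3.39 ± 0.19), with a liver difference of 0.34 ± 0.19 that did not pass. F7, coagulation factor VII, was undetected in ND fat and rose at least 4.95-fold there, with a liver difference of -0.25 ± 0.10 that did not pass. Nceh1, a neutral cholesterol ester hydrolase of macrophages, rose 5.76-fold in fat and fell by 0.37 ± 0.12 in liver, a liver call lost without any 1 of 5 liver arrays, ND replicates 1 and 2 and HFD replicates 1, 2 and 3.

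Many mitochondrial genes were lower in fat. Of 36 genes of the citrate cycle and respiratory chain, 27 fell and 1 rose in fat, and 3 fell and 2 rose in liver. Medians were -0.37 in fat and -0.05 in liver, and the diet effects differed for 21, with liver above fat for 20. The shifts are small, and in place of 20 the count was 13 with cyclic loess and 6 with median scaling. Under median scaling 15 genes of the list in place of 2 were lower in both tissues. Suclg2, a succinyl-CoA ligase subunit, read 12.78, 12.80 and 12.68 on the ND liver arrays, 13.11, 13.11 and 12.99 on the HFD liver arrays, 10.74, 11.08 and 10.91 on the ND fat arrays and 10.28, 10.15 and 10.34 on the HFD fat arrays. It fell by 0.65 ± 0.09 in fat and rose by 0.32 ± 0.09 in liver (adjusted p of the difference 2.7e-04). The liver rise was lost without ND liver replicate 3 or without HFD liver replicate 1 or 2. Pdha1, a pyruvate dehydrogenase subunit, fell by 0.68 ± 0.06 in fat, and Uqcrc2, of respiratory complex III, by 0.53 ± 0.06, with a liver difference of 0.09 that did not pass. Cox7a1, a subunit of cytochrome oxidase, went the other way and rose by 0.50 ± 0.18 in fat, a call lost without ND liver replicate 1, HFD liver replicate 1, ND fat replicate 2 or any HFD fat array.

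Genes for the breakdown of branched-chain amino acids also fell in fat. Of 18 tested genes 16 fell and 1, Abat, rose in fat, while 1 rose and 1 fell in liver. The medians were -0.69 in fat and 0.02 in liver, and the effects differed for 14, with liver above fat for 13. Ivd, isovaleryl-CoA dehydrogenase of leucine breakdown, was 12.81, 12.87 and 12.71 on the ND liver arrays, 12.79, 12.75 and 12.88 on the HFD liver arrays, 12.84, 12.87 and 12.84 on the ND fat arrays and 11.84, 11.70 and 11.97 on the HFD fat arrays. The diets overlapped in liver, and all HFD arrays were below all ND arrays in fat. It fell 2.02-fold in fat (-1.01 ± 0.08, adjusted p = 2.0e-06), with a liver difference of 0.01 ± 0.08 (adjusted p = 0.95). Pccb, of propionyl-CoA carboxylase, fell by 0.88 ± 0.08 in fat, and Aldh6a1, methylmalonate semialdehyde dehydrogenase, by 0.77 ± 0.12. Their liver differences of 0.07 and 0.25 did not pass.

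Markers of fat cells moved beside these decreases. The summed signal of 18 adipocyte markers, each detected on all 6 fat arrays, was 366300 to 381800 in ND fat and 329800 to 351300 in HFD fat, without overlap. Of the 7 adipocyte markers detected in both tissues, 5 fell in fat and 0 rose, while 4 rose and 1 fell in liver. Pparg, the master regulator of fat cells, rose by 0.64 ± 0.15 in liver and fell by 0.49 ± 0.15 in fat. The fat call of Pparg was lost without ND fat replicate 2 or HFD fat replicate 1 or 2. Car3, carbonic anhydrase 3, rose by 0.59 ± 0.10 in liver and fell by 0.67 ± 0.10 in fat. The part of fat cell number in the decreases in fat was not tested. Not every marker fell in fat. Lep had a mean of 15.39 on ND and 16.02 on HFD there, while the means of Adipoq, Plin1, Fabp4 and Retn were lower on HFD, all without a test. In liver the sum over the 18 markers was 21710 to 24140 on ND and 33540 to 38940 on HFD, without overlap. Adipoq, Plin1, Lep, Fabp4 and Retn stayed undetected on all 6 liver arrays.

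**Figure D5:**
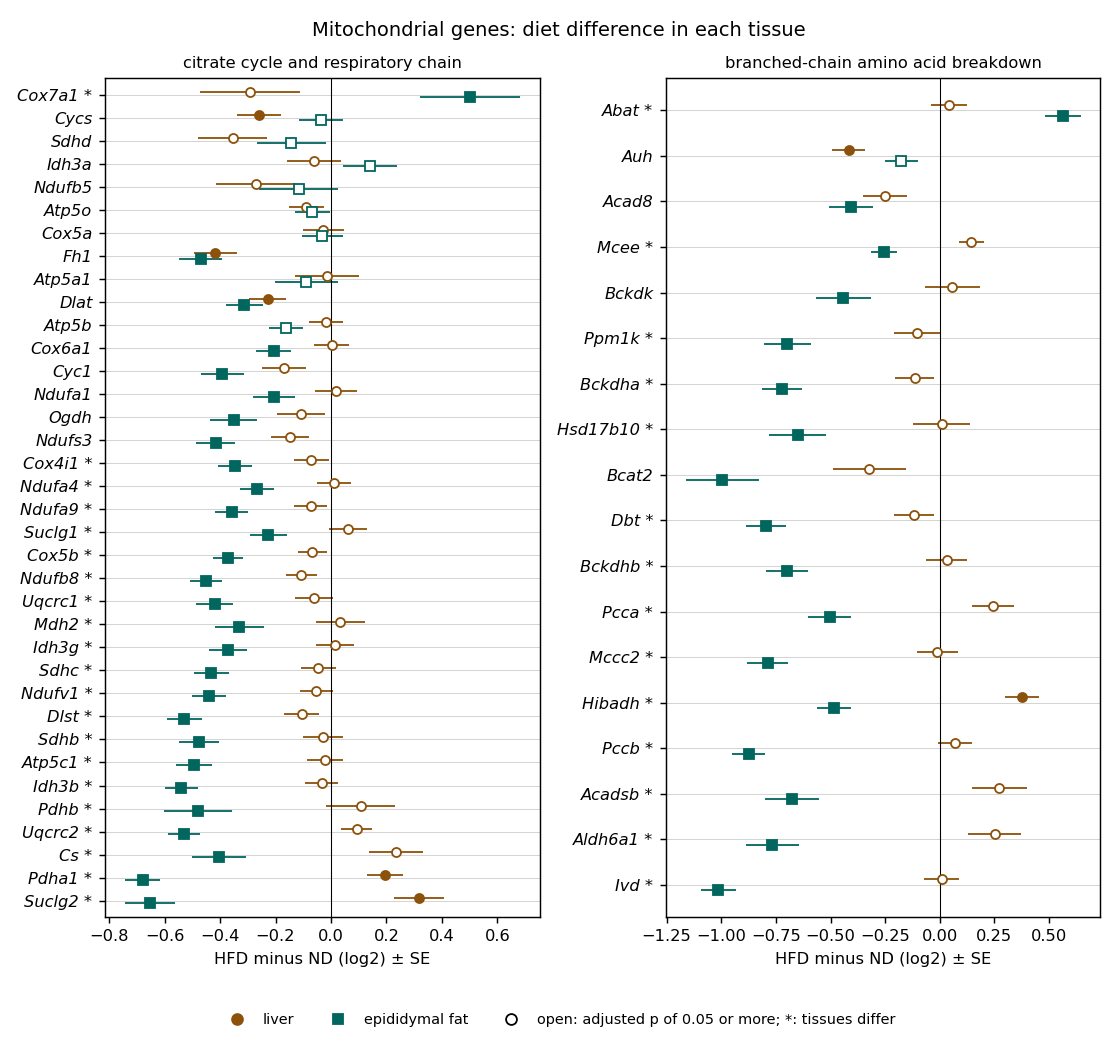
HFD minus ND difference (log2, horizontal axis, bars show SE) of 36 citrate cycle and respiratory chain genes and 18 genes of branched-chain amino acid breakdown, circles for liver and squares for fat, open where the adjusted p was 0.05 or more, with a star where the diet effects differed. Most fat squares lie left of 0 and filled, 27 in the first list and 16 in the second, and most liver circles lie near 0 and open.

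Glutathione and Nrf2 target genes changed in both tissues. Nrf2 is the transcription factor of the antioxidant response. Of 28 tested genes 12 rose and 1 fell in liver, and 5 rose and 12 fell in fat, with the liver effect above the fat effect for 16 and below it for 3. Gsta4, a glutathione transferase that clears lipid peroxidation products, was 10.73, 10.50 and 10.98 on the ND liver arrays, 11.39, 11.64 and 11.54 on the HFD liver arrays, 9.67, 9.67 and 9.53 on the ND fat arrays and 7.51, 7.35 and 7.54 on the HFD fat arrays. It rose 1.73-fold in liver (0.79 ± 0.11, adjusted p = 4.2e-04) and fell 4.44-fold in fat (-2.15 ± 0.11, adjusted p = 1.7e-07), with no overlap between diets in either tissue. Gpx3, the secreted glutathione peroxidase, fell by 1.73 ± 0.14 in fat with a liver difference of 0.32 that did not pass (adjusted p = 0.11). Mgst3, a membrane-bound transferase, rose by 0.39 ± 0.09 in liver and fell by 0.67 ± 0.09 in fat. Abcc4, an efflux pump, rose by 1.44 ± 0.14 in liver with a fat difference of 0.18 that did not pass. Hmox1, haem oxygenase 1, went the other way and rose by 1.23 ± 0.18 in fat, while its liver difference of 0.48 ± 0.18 did not pass.

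Genes of fatty acid handling did not move as 1 group. The shares over all genes were 17.5% higher and 10.9% lower in liver, and 19.1% higher and 23.0% lower in fat. The same shares apply to the droplet, lipolysis, fatty acid synthesis and sterol export lists that follow. For oxidation and ketone formation, 7 of 24 fell and 0 rose in liver, and 8 fell and 2 rose in fat, of which Ppargc1a was the 1 gene lower in both. Pdk4, which shuts off pyruvate dehydrogenase, was 11.63, 11.94 and 12.02 on the ND liver arrays, 10.09, 9.97 and 9.76 on the HFD liver arrays, 12.55, 13.40 and 13.22 on the ND fat arrays and 13.38, 13.48 and 13.48 on the HFD fat arrays. It fell 3.80-fold in liver (-1.93 ± 0.18, adjusted p = 2.6e-05), while its fat arrays overlapped (difference 0.39 ± 0.18, adjusted p = 0.11). Fgf21, a fasting hormone of the liver, fell by 1.23 ± 0.15 in liver and differed by 0.11 in fat without passing. Cpt1b, a mitochondrial carnitine transferase, rose by 1.33 ± 0.12 in fat with a liver difference of 0.03 that did not pass. Eci1, of unsaturated fatty acid oxidation, fell by 0.71 ± 0.09 in fat.

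Lipid droplet genes were mixed. Of 18 tested genes for triglyceride synthesis and droplets, 3 rose and 5 fell in liver and 3 rose and 4 fell in fat, with Dgat1, a triglyceride synthase, the 1 gene lower in both. The liver call of Dgat1 was lost without ND liver replicates 1 or 3 or HFD liver replicates 2 or 3. Plin2, the droplet coat protein common to most cells, read 12.70, 12.57 and 12.48 on the ND liver arrays, 12.33, 12.40 and 12.30 on the HFD liver arrays, 10.95, 11.27 and 11.32 on the ND fat arrays and 12.21, 12.19 and 12.10 on the HFD fat arrays. It rose 1.98-fold in fat (0.99 ± 0.10, adjusted p = 1.2e-05), with a liver difference of -0.24 ± 0.10 (adjusted p = 0.087). Plin4, a coat protein of fat cells, rose by 1.40 ± 0.21 in liver with a fat difference of -0.11 that did not pass, and Cidec, a relative of Cidea, rose by 0.71 ± 0.20 in liver with a fat difference of -0.39 (adjusted p = 0.13). The liver rise of Cidec missed the threshold without HFD liver replicate 2. Hilpda, an inhibitor of triglyceride lipase, fell by 0.50 ± 0.13 in liver and rose by 0.51 ± 0.13 in fat. The liver decrease of Hilpda was lost without ND replicates 2 or 3 or HFD replicates 1 or 2.

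Of 15 genes for lipolysis and fatty acid uptake 2 rose and 4 fell in each tissue. Lpl, lipoprotein lipase, rose by 1.99 ± 0.12 in liver (adjusted p = 7.5e-07), a call not made in the authors' values, and differed by 0.03 in fat without passing. Vldlr, a receptor for triglyceride-rich lipoproteins, rose by 1.26 ± 0.15 in liver, with a fat difference of 0.24 that did not pass. Of 15 genes for fatty acid synthesis and desaturation, 2 rose and 3 fell in each tissue, and Mlxipl, the sugar-sensing factor ChREBP, fell by 0.50 ± 0.12 in fat with a liver difference of 0.20 that did not pass. Its other probe differed by -0.10 in fat. Among 8 sterol export and LXR target genes, 4 rose in liver, 2 rose and 2 fell in fat. Abcg5, a sterol export half-transporter, rose by 1.40 ± 0.07 in liver, Srebf1, the lipogenic SREBP, by 1.23 ± 0.19, and Abcg1, a cholesterol exporter, rose by 0.77 in liver and 0.77 in fat.

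Of 21 genes of insulin signalling and glucose production, 3 rose and 3 fell in liver and 2 rose and 9 fell in fat. Among all genes tested 17.5% rose and 10.9% fell in liver, and 19.1% rose and 23.0% fell in fat. Irs2, an adaptor of the insulin receptor, was 10.37, 10.95 and 10.77 on the ND liver arrays, 8.96, 9.45 and 9.31 on the HFD liver arrays, 11.09, 11.52 and 11.62 on the ND fat arrays and 10.81, 10.53 and 10.70 on the HFD fat arrays. It fell by 1.46 ± 0.18 in liver (adjusted p = 1.3e-04) and 0.73 ± 0.18 in fat (adjusted p = 0.0060). Pck1, phosphoenolpyruvate carboxykinase, fell by 0.64 ± 0.16 in liver and 1.46 ± 0.16 in fat, though another probe differed by -0.09 in liver. Insr, the insulin receptor, fell by 0.65 ± 0.09 in fat with a liver difference of -0.13 that did not pass. Another Insr probe differed by -0.43 in liver and -0.56 in fat, so a decrease in fat alone rests on 1 probe. Grb10, an inhibitory adaptor, fell by 0.98 ± 0.13 in fat, where another probe differed by -0.63. Trib3, a stress-induced pseudokinase, rose by 0.60 ± 0.11 in liver and fell by 0.64 ± 0.11 in fat. Of its other 2 probes, 1 gave 0.72 in liver and -0.72 in fat and the other 0.20 and -0.17.

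Of 22 tested endothelial markers 9 rose and 0 fell in liver, and 1 rose and 6 fell in fat, where 17.5% of all genes were higher in liver and 23.0% lower in fat, and the liver effect was above the fat effect for 11 and below it for 0. The sum over 23 markers was 23470 to 23950 in ND liver and 28700 to 31000 in HFD liver, and 93610 to 104100 in ND fat and 78160 to 90790 in HFD fat. Sox17, an endothelial transcription factor, rose at least 1.41-fold in liver with a fat difference of -0.18 that did not pass, and Robo4, a vessel-guidance receptor, fell by 0.51 ± 0.11 in fat with a liver difference of 0.20 that did not pass. The number of endothelial cells was not measured.

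Liver-type and acute phase genes changed in both directions in fat. None of the 8 hepatocyte markers detected in both tissues changed in liver, and 4 rose and 3 fell in fat. The signal summed over 22 hepatocyte markers was 113600 to 123000 in ND fat and 63170 to 73850 in HFD fat, without overlap. Ass1, of arginine synthesis, rose by 2.01 ± 0.11 in fat, and Cyp2e1, an ethanol-oxidizing cytochrome, fell by 1.52 ± 0.08 there. Of 13 acute phase genes 3 rose in liver, and 8 rose and 2 fell in fat. Saa3, a serum amyloid made outside hepatocytes too, rose by 1.39 ± 0.22 in liver and 3.97 ± 0.22 in fat, while Lcn2, a siderophore-binding lipocalin, rose by 3.44 ± 0.25 in liver with a fat difference of 0.39 that did not pass (adjusted p = 0.23). Of 18 complement genes 8 rose and 2 fell in liver and 9 rose and 4 fell in fat. These counts stand beside 17.5% higher and 10.9% lower in liver, and 19.1% higher and 23.0% lower in fat, over all genes. Masp1, a lectin pathway protease, rose by 0.46 in liver and fell by 0.56 in fat, though another probe differed by 0.07 in liver.

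Stress gene lists were mixed. Beside them, 17.5% of all genes rose and 10.9% fell in liver, and 19.1% rose and 23.0% fell in fat. Of 21 endoplasmic reticulum stress genes 3 rose and 0 fell in liver and 4 rose and 5 fell in fat. Chac1, a glutathione-cleaving enzyme of this response, rose by 0.74 ± 0.14 in liver and fell by 1.40 ± 0.14 in fat (adjusted p of the difference 3.2e-05). Of 22 immediate early and heat shock genes 7 rose and 1 fell in liver and 4 rose and 4 fell in fat. Jun, an AP-1 subunit, rose by 0.46 ± 0.11 in liver and fell by 0.44 ± 0.11 in fat, while Fos, its partner, rose by 1.32 ± 0.24 and 1.72 ± 0.24. Of 23 proteasome subunits 0 changed in liver, and 6 rose and 2 fell in fat.

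The remaining markers of other cell types gave few testable genes. Of 6 T and NK cell markers 2 rose in liver and 3 in fat, 2 of them in both, and of 4 neutrophil and mast cell markers 1 rose in liver and 2 in fat. Both tested mesothelium markers, the keratins Krt8 and Krt18, rose in liver, Krt8 by 1.11 ± 0.16 with a fat difference of -0.11 that did not pass. These keratins are also made by other epithelia, and the other 7 mesothelium markers on the array did not pass the detection rule in liver. In fat the sum over 9 mesothelium markers was 3167 to 3357 on ND and 2010 to 2536 on HFD, without overlap. The 1 tested skeletal muscle marker, Eno3, fell by 0.66 ± 0.14 in fat. No B and plasma cell marker and no epididymis and testis marker was detected in both tissues.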

How the data were processed

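Illumina mouse bead arrays measured RNA of liver and epididymal fat. Per the file headers, the deposited tables, 1 per tissue, hold for each array the average signal intensity and a detection p-value of each probe. The deposited series values are on a log2 scale, and the authors' steps to them are not given in the sources used here beyond GenomeStudio 2009.2 and R 2.4.1, per the submitters' processing notes. From the intensities, the background was estimated from detection p-values (limma 3.58.1 nec, offset 16, in R 4.3.3), the 12 arrays were quantile normalized together and log2 was taken. The authors' log2 values served as an alternative. The brightest probe stood for each gene. Of the named probes, 22883 carry 1 gene and 13 carry several, which were not named. One limma model with 4 group means gave each diet difference and the difference between tissues, and p-values were adjusted by Benjamini-Hochberg over 8212 genes with a threshold of 0.05. Values after ± are standard errors on the log2 scale.

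A gene detected on none of the 3 arrays of a group has only a bound there, given as "at least", with the lowest signal of detected probes as floor. The bound holds for the probe used and was not tested. The call of such a gene comes from the fitted difference, which takes the background values. Leading genes were the 8 of each class (both higher, both lower and the 2 opposite classes) with the largest smaller change of the 2 tissues, among genes whose arrays did not overlap between diets, and the 6 largest differences between tissues in each direction. From each gene list, members were named by the size of their difference between tissues or of their smaller change. A few others were chosen after their values were seen. The members and lists were chosen with earlier results of these data known. Simulated data with 8212 genes, drawn once, had 200 genes changed in HFD liver alone, noise independent between genes and no background floor. There the difference between tissues was recovered for 58.2% of genes changed 1.5-fold and 95.5% changed 2-fold, and 6.21% of calls were false. In the real data many genes changed in both tissues or lay at background, so these rates do not carry over to it. The labels give no slide or scan, so array batches were not tested. Promoters came from a RefSeq table on GRCm38.p6.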

Additional observations from a re-analysis of the deposited data

Results flagged for a closer look

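The diet effect differed between liver and fat by the test of the difference itself in limma, at an adjusted p under 0.05, for 28 of the genes named by rule. The values are the log2 effect in liver minus that in fat. The liver effect was above the fat effect by the largest amounts for Cidea (6.87), Acsm3 (4.38), Sdcbp2 (4.32), Tmem45b (3.60), Ntrk2 (3.56) and Adig (3.11). It was also above for Tafa5 (2.63), Adgrg2 (2.16), Pde1a (1.83), Dusp4 (1.81), Syt12 (1.79), Zfp872 (1.72) and Gpnmb (1.59). The liver effect was below the fat effect for Rgs1 (-4.20), Sqle (-3.40), F7 (-3.15), Il7r (-3.05), Sel1l3 (-3.04), Nceh1 (-2.90), Lamb3 (-2.70) and Mmp12 (-2.43). It was below by less for Pltp (-2.31), Insig1 (-2.21), Trem2 (-2.06), Gadd45b (-2.05), Hsd17b7 (-1.73), Camk1d (-1.70) and Msmo1 (-1.40). Where a gene was undetected in a group, its value rests on background there and is no fold bound.

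The same test was passed by 2416 of all 8212 genes (29.4%), and the counts of the gene lists are to be read against that share, which several lists do not exceed. The number of members with a difference was 11 of 14 for cholesterol synthesis and uptake, 4 of 8 for sterol export and LXR targets, 4 of 15 for fatty acid synthesis and desaturation, 7 of 18 for triglyceride synthesis and lipid droplets, 7 of 15 for lipolysis and fatty acid uptake and 12 of 24 for fatty acid oxidation and ketogenesis. It was 7 of 21 for insulin signalling and glucose production, 21 of 36 for citrate cycle and respiratory chain, 14 of 18 for branched-chain amino acid breakdown, 6 of 18 for cytokines and chemokines, 12 of 18 for macrophage markers and 11 of 15 for lipid-associated macrophage markers. For other lists the number was 2 of 9 for Kupffer cell markers, 5 of 12 for antigen presentation, class II, 5 of 22 for interferon-stimulated genes, 16 of 27 for lysosome, 11 of 26 for extracellular matrix and 11 of 22 for endothelium markers. The number was also 2 of 11 for fibroblast and stellate cell markers, 4 of 7 for adipocyte markers, 7 of 8 for hepatocyte markers, 9 of 13 for acute phase proteins, 11 of 18 for complement and 19 of 28 for Nrf2 and glutathione. Further numbers were 9 of 14 for circadian clock and output, 4 of 21 for endoplasmic reticulum stress, 4 of 22 for immediate early and heat shock genes, 10 of 21 for cell cycle, 1 of 6 for T and NK cell markers and 2 of 2 for mesothelium markers. The last were 1 of 3 for erythrocyte markers and 4 of 23 for proteasome.

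Of 2592 probes detected in both tissues that do not carry 1 gene name and enter no comparison above, 317 also differed between tissues, 181 with liver above fat and 136 below.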

How the results depend on the processing

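The comparisons were repeated under 15 other settings and without each of the 12 arrays, where a background offset of 50 was chosen after seeing the data. With each tissue fitted by itself the difference between tissues could not be tested. For the 89 values by which the 41 leading genes were chosen, 2212 values under alternatives kept their side of the threshold, 14 lost it and 0 reversed. Some calls of other named genes were also lost, as given beside them in the report. The losses among the 89 were those of Syt12, Zfp872, Dusp4, Insig1 and Msmo1 in liver and of Gadd45b in fat. Under median scaling 1363 genes in place of 894 were lower in liver, and 393 in place of 260 were lower in both tissues. Of the citrate cycle and respiratory chain list, 15 genes in place of 2 were then lower in both. The cause was not tested. With detection required on every array at a p under 0.01, which leaves fewer genes to test, 5 cytokine genes in place of 12, 4 lipid-associated macrophage markers in place of 7 and 9 matrix genes in place of 14 were higher in both. Leaving out 1 array gave 69 to 106 genes lower in liver and higher in fat, with 69 without HFD liver replicate 1, and 126 to 186 genes higher in liver and lower in fat. Genes higher in both numbered 505 to 600 and lower in both 175 to 259. Signal over background limits the genes undetected on a diet. Without background correction the called differences between tissues had a median 0.856 of their size.

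Samples of the same number in liver and fat were not shown to be paired. Their deviations correlated at 0.105, 0.154 and 0.171 on ND and at -0.116, 0.0352 and 0.0673 on HFD. With the replicate number as a fixed block, 597 genes were higher in both, 238 lower in both, 171 higher in liver and lower in fat, and 94 the reverse. With diet and number as a random block these counts were 612, 262, 184 and 107. On ND each of the 3 pairs had its best match in its own number, and on HFD that held for replicate 3 alone.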
